A study of Mus musculus with 2 samples.

Results

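The Kruppel-like factor genes Klf6, Klf2, Klf3, Klf4 and Klf13 were described in single CD4 T cells from mouse spleen. They are 5 of the 35976 genes in the count tables, and 5 of the 17 Klf genes with a row there. They were chosen by name with earlier values of these data in view, so the levels and ratios between hosts given here are a description and carry no test. The transferred cells carried OTII, a transgenic T cell receptor that recognises a peptide of ovalbumin, in both groups. The deleted hosts were 3 pooled IL13Ra1f/f, CD11cCre/+ mice, in which Cre driven by the CD11c promoter acts mainly in dendritic cells and also in some macrophages of the host. The control hosts were 2 pooled C57BL/6 mice, for which no floxed allele or Cre is named. Both groups were taken at day 7 after CAS and a second priming; the labels do not spell out CAS, and no host age is stated in the sources used here. The sort kept living cells with V beta 5.1/5.2 and CD4, which host cells with the same receptor chain could also pass. The study asked how the IL-13 signal bears on follicular helper T cells.

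Each group was 1 pooled sample of 368 cells on 4 plates, so there was no biological replicate and no test between hosts. Plates are technical splits of a pool, and since no plate held both, plate and host cannot be told apart. The 8 plates held 125197307 to 148025125 reads in genes, with a median of 1499762 reads per cell in deleted hosts and 1592794 in control hosts. Of the 9 CD4 T cell markers listed, 8 had a row and all 8 were measured. They summed to 7658 to 8727 CPM (reads per 1000000 reads in genes) on plates of deleted hosts and 7618 to 8448 CPM on plates of control hosts. No B cell marker reached 5 CPM in either pool, and their sum was at most 18.0 CPM on a plate. Myeloid markers summed to 105 CPM in deleted hosts and 114 CPM in control hosts, dendritic cell markers to 8.20 and 4.35 CPM, erythroid markers to 13.1 and 10.9 CPM, CD8 T cell markers to 9.47 and 26.5 CPM, and NK and ILC markers to 122 and 82.4 CPM. Naive or resting markers summed to 5275 CPM in deleted hosts and 4710.4 CPM in control hosts, and activated or memory markers to 696 and 596 CPM; the part of cell makeup in any difference between hosts was not tested, and fewer cells of a type and less RNA per cell cannot be told apart in such sums. One well of deleted plate 4 held 9905 reads, a depth near that of wells without a cell, and 2 wells in all held under 100000 reads. Without those 2 wells the log2 ratios of the 5 genes were the same to 2 decimals as with them. Their reads are too few to move a ratio of summed reads, so this does not bear on shares of positive cells.

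Kruppel-like factors are zinc finger transcription factors that bind GC-rich and CACCC-type DNA. KLF2 keeps T cells quiescent and drives S1pr1, whose product, a receptor for sphingosine 1-phosphate, lets T cells leave lymphoid tissue. KLF2 falls after T cell receptor signalling, is kept up by FOXO1 and opposes the follicular helper programme. KLF6 and KLF4 are encoded by early response genes in many cell types. KLF4 restrains cell division, KLF3 is a repressor that recruits CtBP, and KLF13 was described as a factor that binds the promoter of the chemokine gene CCL5 in human T cells.

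RefSeq promoter windows (GRCm38.p6, 250 bases before to 50 bases after the annotated start) were matched for all 5 genes. Those of Klf2, Klf6 and Klf13 are shown because the plates of Klf6 and Klf13 did not overlap between hosts, and Klf2 and Klf13 were the pair found together most. Capitals mark matches to the MEF2 motif, the CArG box bound by serum response factor, and TGACG, the core of the cyclic AMP response element, each searched on both strands.
Klf2, chr8:72318812-72319111, plus strand: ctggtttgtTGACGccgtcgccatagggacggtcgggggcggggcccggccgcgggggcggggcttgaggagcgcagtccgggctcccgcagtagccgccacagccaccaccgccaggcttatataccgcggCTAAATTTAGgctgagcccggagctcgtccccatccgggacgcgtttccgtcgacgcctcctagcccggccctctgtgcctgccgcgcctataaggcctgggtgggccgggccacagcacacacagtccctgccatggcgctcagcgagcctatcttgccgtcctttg
Klf6, chr13:5861239-5861538, plus strand: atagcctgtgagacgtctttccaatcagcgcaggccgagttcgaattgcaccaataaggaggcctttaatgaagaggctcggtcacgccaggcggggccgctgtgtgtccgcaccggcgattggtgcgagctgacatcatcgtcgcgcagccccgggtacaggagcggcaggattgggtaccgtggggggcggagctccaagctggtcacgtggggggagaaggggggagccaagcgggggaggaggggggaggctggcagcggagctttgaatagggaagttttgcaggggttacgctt
Klf13, chr7:63938866-63939165, minus strand: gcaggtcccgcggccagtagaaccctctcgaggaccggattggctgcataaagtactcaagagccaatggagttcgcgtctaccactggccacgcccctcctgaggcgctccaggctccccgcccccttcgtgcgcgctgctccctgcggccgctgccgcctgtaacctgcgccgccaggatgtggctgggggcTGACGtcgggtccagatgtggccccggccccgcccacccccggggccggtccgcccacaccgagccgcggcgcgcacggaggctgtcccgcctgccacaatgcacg
The Klf2 window held 1 MEF2 match, CTAAATTTAG, which begins 118 bases before the start, and this motif was in 0.557% of the 32851 promoter windows in the table. It was in none of the windows of the other members. MEF2 factors act at the Klf2 promoter downstream of the kinase ERK5, as background. TGACG was in the windows of Klf2, Klf3, Klf4 and Klf13 but not of Klf6, against 20.8% of all windows. The CArG box, in 1.63% of all windows, was in none of the 5. GGGCGG, a GC box, was found in all 5 windows, 6 times in that of Klf3, and in 35.7% of all windows. CACCC was found 5 times in the Klf3 window, once each in those of Klf2 and Klf13 and not in those of Klf6 and Klf4, against 57.5% of all windows. The windows had a GC content of 63% for Klf6 to 76.7% for Klf3, and a match is a description of letters and not of binding.

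Klf6 was the 1 member that was both at least 2-fold higher in deleted hosts and without overlap of plates. It (chromosome 13, 5861482 to 5870394, plus strand, GRCm38) was at 685, 457, 579.5 and 494 CPM on deleted plates 1 to 4, against 224, 236, 406 and 199 CPM on control plates 1 to 4. Every deleted plate lay above every control plate, and control plate 3 came closest. The pools were at 551 CPM in deleted hosts (exact Poisson 95% interval 549 to 553) and 266 CPM in control hosts (265 to 267), intervals far narrower than the spread between plates. The log2 ratio, taken as deleted over control with 1 CPM added to each, was 1.05. Of 2388 genes at 100 CPM or more in the higher pool, 0.544% were at least 2-fold higher in deleted hosts, 0.419% at least 2-fold lower, and 12 genes had a larger ratio than Klf6. In 2.43% of the 2388 genes every deleted plate lay above every control plate. Among the 7207 genes at 20 CPM or more, 2.75% were past 2-fold upward in deleted hosts and 3.16% downward, while 1.82% had every deleted plate above every control plate and 2.86% every deleted plate below. Nothing is read from these shares, since the members were chosen with this contrast known. The Klf6 ratio fell under 2-fold on the log2 scale without any 1 of deleted plate 1, control plate 1, control plate 2 or control plate 4 (0.94, 0.97, 0.997 and 0.93), and was at 1.33 without control plate 3.

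**Figure D1:**
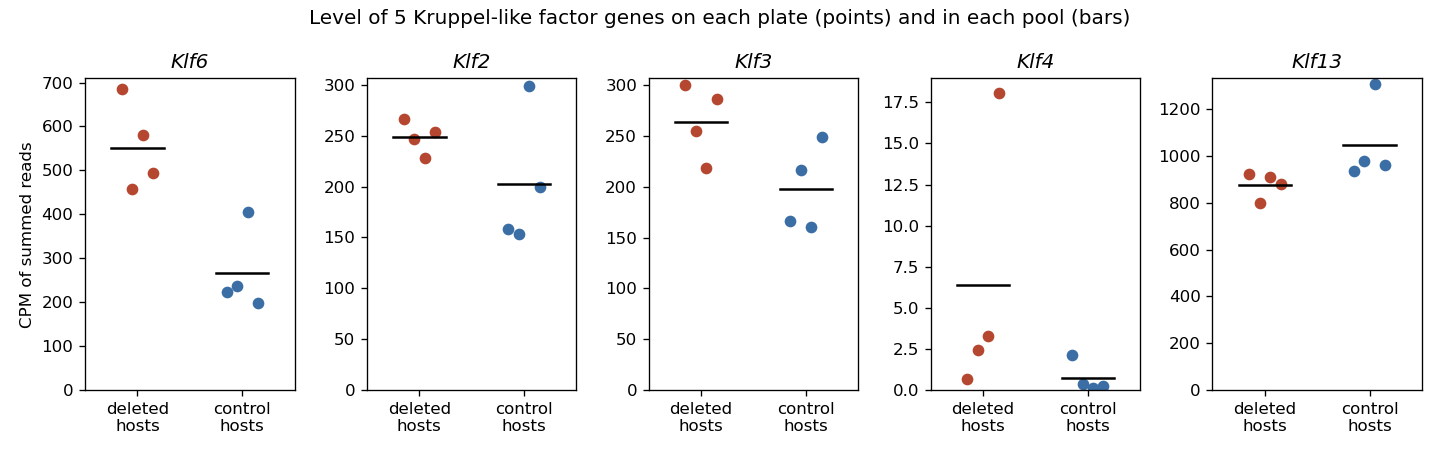
Level of each member in CPM of summed reads (linear axes from 0, a scale for each gene). Points are the 4 plates of deleted hosts (left) and control hosts (right), bars the pools. Klf6 was at 457 to 685 CPM on deleted plates and 199 to 406 CPM on control plates, and Klf13 at 801 to 923 CPM and 937 to 1307 CPM.

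More cells held Klf6, and those that held it had more. A cell was called positive where the gene reached 10 CPM and also 5% of its plate mean. By that rule 160 of 368 cells were Klf6-positive in deleted hosts (43.5%, exact Clopper-Pearson 95% interval 38.3 to 48.7%), against 115 of 368 in control hosts (31.2%, 26.5 to 36.3%). The shares were 39.1 to 46.7% on deleted plates and 26.1 to 38.0% on control plates and did not overlap. The closest plates differed little, with 36 positive cells of 92 on deleted plate 2 and 35 of 92 on control plate 3. For how many of all genes such shares part is not given here, so nothing is read from it. Among positive cells the median level was 1061 CPM in deleted hosts and 825 CPM in control hosts, with quartiles of 628 to 1633 CPM and 403 to 1166 CPM. Few cells held an intermediate level of Klf6, with 23 cells in deleted hosts and 21 in control hosts between 10 and 100 CPM and 149 and 98 at 100 CPM or more. Klf3 was split likewise, with 23 and 25 cells between 10 and 100 CPM, and the part of lost transcripts and amplification in this split was not tested. The highest 10% of cells (37 in each pool) held 50.1% of the Klf6 reads in deleted hosts and 59.1% in control hosts.

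Klf2 (chromosome 8, 72319033 to 72321656, plus strand) was at 266, 247, 228 and 254 CPM on deleted plates 1 to 4, against 158, 153, 299 and 199.9 CPM on control plates 1 to 4. The plates overlapped, since control plate 3 was the highest of all 8. The pools were at 248 CPM in deleted hosts and 203 CPM in control hosts, with a log2 ratio of 0.29 that was 0.54 without control plate 3, 0.18 without control plate 2 and 0.19 without control plate 1. Positive cells made up 74.2% (69.4 to 78.6%) in deleted hosts and 67.9% (62.9 to 72.7%) in control hosts. The median level in positive cells was 251 CPM in deleted hosts and 195 CPM in control hosts. More cells were thus called positive for Klf2 than for Klf6, at a lower median CPM, which is not scaled to gene length. Cells with at least 1 read were fewer for Klf2, 350 in deleted hosts and 344 in control hosts, against 362 and 359 for Klf6.

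Klf3 (chromosome 5, 64803388 to 64832901, plus strand) was at 299.8, 255, 218 and 286 CPM on deleted plates 1 to 4, against 167, 216, 161 and 249 CPM on control plates 1 to 4. The plates overlapped in 1 place, where control plate 4 lay above deleted plate 3. The pools were at 264 CPM in deleted hosts and 198 CPM in control hosts, a log2 ratio of 0.41 that ranged from 0.32 to 0.54 with 1 plate left out. Positive cells made up 35.3% (30.4 to 40.4%) in deleted hosts and 32.6% (27.8 to 37.7%) in control hosts, and their median level was 647 CPM in deleted hosts and 452 CPM in control hosts. An exon of Klf3 shares up to 404 bases with the annotated gene Gm20033 on the opposite strand, and the strand setting of the counting was not stated, so reads of both genes cannot be told apart there.

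Klf13 (chromosome 7, 63886351 to 63938915, minus strand) was the most widely read member and ran in the opposite direction. It was at 923, 801, 912 and 879 CPM on deleted plates 1 to 4, against 937, 981, 1307 and 962 CPM on control plates 1 to 4. Every deleted plate lay below every control plate, as for 3.85% of the 2388 genes, but the gap between deleted plate 1 and control plate 1 was small and control plate 3 stood above the other 3. The pools were at 878 CPM in deleted hosts and 1047 CPM in control hosts, a log2 ratio of -0.25 that was -0.13 without control plate 3. The share of positive cells was nearly the same, at 92.9% (89.8 to 95.3%) in deleted hosts and 92.7% (89.5 to 95.1%) in control hosts. The median level of positive cells was 798 CPM in deleted hosts and 976 CPM in control hosts.

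Klf4 (chromosome 4, 55527143 to 55532466, minus strand) was nearly silent. It was at 0.687, 2.44, 3.32 and 18.1 CPM on deleted plates 1 to 4, against 2.11, 0.391, 0.126 and 0.25 CPM on control plates 1 to 4. The plates overlapped. The pools were at 6.40 CPM in deleted hosts and 0.721 CPM in control hosts, but 1 cell of deleted plate 4, with 2583 reads (1534 CPM), held 74.4% of the Klf4 reads of its pool, and 1 cell of control plate 1 held 68.5% of those of the control pool. The log2 ratio of 2.10 was 1.11 when each pool lost its highest cell, and 0.89 without deleted plate 4. There were 10 positive cells in deleted hosts (2.72%, 1.31 to 4.94%) and 2 in control hosts (0.543%, 0.0659 to 1.95%). The highest cell was positive for 7 of the 8 CD4 T cell markers and for none of the B cell, myeloid or erythroid markers. The highest control cell, on control plate 1 (138 CPM of Klf4), had 6 CD4 T cell markers, Cd4 at 2417 CPM and likewise none of those others. It was positive for 1 CD8 T cell marker. Other cells with Klf4 differed. On deleted plate 3, a cell at 204 CPM of Klf4 had 5 CD4 T cell markers, Cd4 at 0, 4 myeloid, 2 erythroid and 1 NK and ILC marker. On deleted plate 2, a cell at 106 CPM had 7 CD4 T cell markers, Cd4 at 2.80 CPM and 2 myeloid markers. Cells at 82.5 CPM (deleted plate 3) and 48.6 CPM (deleted plate 2) had 8 and 7 CD4 T cell markers and 1 myeloid marker each, the first also 1 erythroid marker.

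**Figure D2:**
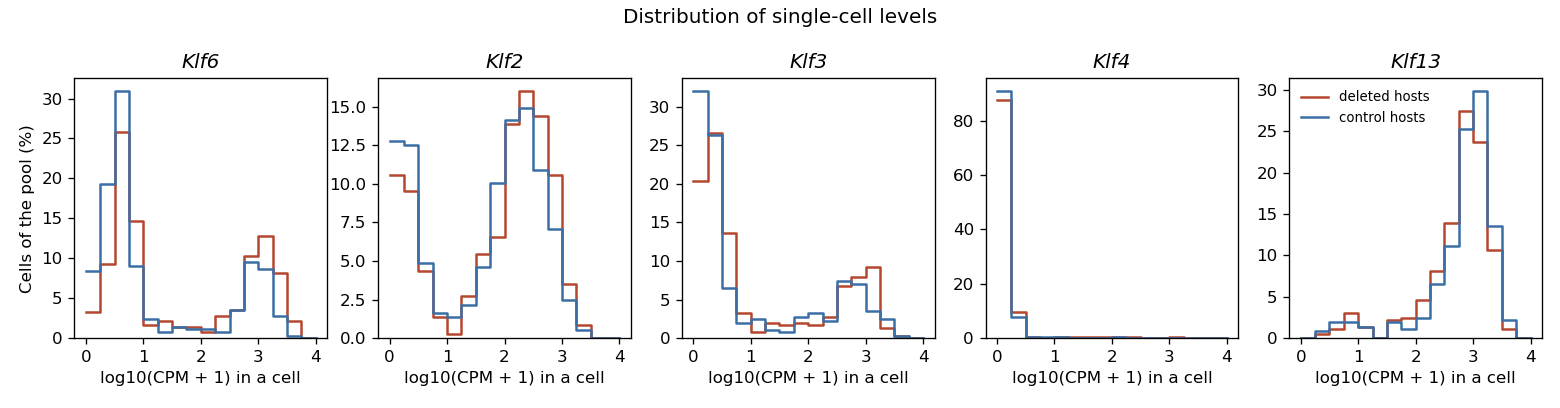
Share of the 368 cells of each pool (y axis, percent, a scale for each gene) by level in a cell (x axis, log10 of CPM + 1, in steps of 0.25) in deleted hosts (red) and control hosts (blue). Klf6 and Klf3 split into cells under 10 CPM and cells above 100 CPM, Klf13 lies above 100 CPM in most cells, and Klf4 is at or near 0 in almost every cell.

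A few reads of these genes were also found in the 9 wells without a cell. Those wells held 85796 reads in all, with 40 reads of Klf6, 11 of Klf2, 21 of Klf3, 4 of Klf4 and 52 of Klf13, and the highest single count was 11. Cells with at least 1 read of Klf6 numbered 362 of 368 in deleted hosts and 359 of 368 in control hosts, and such low counts are read here as background. Scaled to their own few reads, the wells without a cell were at 466 CPM for Klf6 and 128 CPM for Klf2. They were at 245 CPM for Klf3 and 606 CPM for Klf13, and these levels were not far from those of the cells. For Klf4 they were at 46.6 CPM, well above the pools of cells (6.40 and 0.721 CPM). All 9 wells held reads of Klf6, Klf3 and Klf13, but 7 held Klf2 and 3 held Klf4. Wells with such reads would pass the rule for positive cells on CPM. In reads they lay far lower, at 4.44 reads of Klf6 per well, against 613 per cell well. The rule can still admit stray reads in cells, since the myeloid gene Lyz2 was positive in 285 cells in deleted hosts and 223 in control hosts at pool levels of 15.3 and 12.03 CPM. The part of such reads in the shares was not tested.

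**Figure D3:**
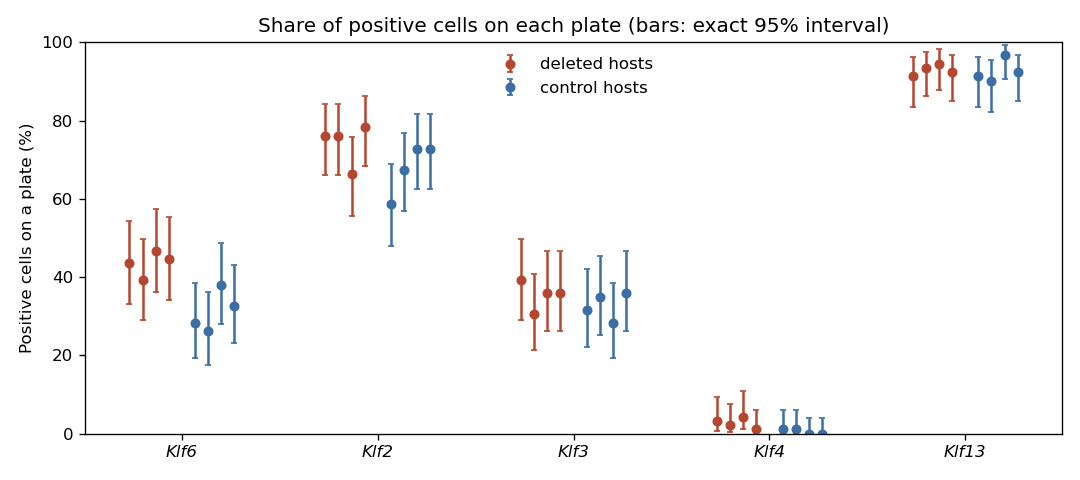
Share of positive cells on each plate of 92 cells (y axis, percent), with exact 95% intervals, for plates of deleted hosts (red, left) and control hosts (blue, right) of each gene. The Klf6 shares were 39.1 to 46.7% on deleted plates and 26.1 to 38.0% on control plates, while those of the other members overlapped. The closest Klf6 plates, deleted plate 2 and control plate 3, had 36 and 35 positive cells.

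Levels of different genes were compared per kilobase of merged annotated exons (GENCODE M21), in CPM per kb. In deleted hosts Klf2 was at 134, Klf6 at 125, Klf13 at 117, Klf3 at 23.5 and Klf4 at 2.10 CPM per kb. In control hosts Klf13 was at 139, Klf2 at 110, Klf6 at 60.6, Klf3 at 17.6 and Klf4 at 0.236 CPM per kb. Klf13 and Klf2 headed one order each, and the first 3 in deleted hosts lay closer together than the plates of Klf6 did. The merged exons of Klf3 span 11243 bases over all its annotated transcripts, so its level per kb is a low estimate if shorter forms were read.

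Of the 17 Klf genes, 9 reached 5 CPM in either pool. Outside the 5 members, Klf7, a close relative of Klf6, was at 91.7 CPM in deleted hosts and 76.8 CPM in control hosts. Klf10, which acts in the TGF-beta response, went the other way from Klf6, at 26.3 CPM in deleted hosts (plates 7.49 to 45.8) and 51.0 CPM in control hosts (plates 34.4 to 76.4), with overlapping plates. Klf16 was at 21.8 CPM in deleted hosts and 11.8 CPM in control hosts. Of the 9, 3 were at least 2-fold higher in deleted hosts (Klf4, Klf6 and Klf11) and none was lower, against 5.98% higher and 6.71% lower of 9764 genes at 5 CPM or more. Nothing is read from this count, since Klf4 and Klf6 are members chosen with this contrast known. Most Klf4 reads of each pool also came from 1 cell. Klf11, singled out here after its values were seen, had 2 positive cells in each pool. The related Sp factors include Sp3, which was at 106 CPM in deleted hosts and 165 CPM in control hosts with no overlap of plates. Sp1 was at 23.2 CPM in deleted hosts and 14.4 CPM in control hosts, and Sp2 at 17.9 CPM and 24.0 CPM, both with overlapping plates.

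Most cells were positive for more than 1 member. In deleted hosts 132 cells (35.9%) were positive for 3 of the 5, 49 for 4 and 3 for all 5, while in control hosts 114 cells (31.0%) were positive for 3, 32 for 4 and 1 for all 5. The commonest combination was Klf2 with Klf13 alone, in 92 cells (25%) in deleted hosts and 103 cells (28.0%) in control hosts. Klf6, Klf2 and Klf13 together without the others came next in deleted hosts, in 74 cells (20.1%), against 51 cells (13.9%) in control hosts. Klf13 alone was found in 40 cells (10.9%) in deleted hosts and 59 cells in control hosts.

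Among the pairs of Klf6, Klf2, Klf3 and Klf13, Klf2 with Klf13 had the highest odds ratio. Of Klf13-positive cells 76.3% were Klf2-positive in deleted hosts, against 46.2% of the 26 Klf13-negative cells. The same shares in control hosts were 70.4% and 37.0% of 27 cells. The order held on each of the 8 plates, and the odds ratio stratified over plates (Mantel-Haenszel) was 3.94, from 3.43 to 4.39 with 1 plate left out. Klf6 and Klf2 followed with an odds ratio of 1.89. Klf6 was positive in 48.4% of Klf2-positive and 29.5% of Klf2-negative cells in deleted hosts, and in 34.4% and 24.6% in control hosts, again in this order on each of the 8 plates. Klf6 with Klf3 and Klf2 with Klf3 both had an odds ratio of 1.36 to 1.37, and Klf13 with Klf6 (0.94) or Klf3 (1.03) lay near 1. For Klf13 with Klf6 the direction turned at a positive threshold of 50 CPM (1.55) and after thinning (1.38). Cells are not replicates, and these odds ratios describe cells that share plates and depth. With each cell thinned to 200000 reads, which left out 3 cells of deleted hosts and 0 of control hosts, the odds ratio was 3.48 for Klf2 with Klf13 and 2.28 for Klf6 with Klf2.

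The gene whose level ran most like that of Klf2 across cells was S1pr1. The mean over 8 plates of the within-plate Spearman rho (92 cells each) was 0.37, from 0.28 to 0.49, the highest among 7354 genes read in at least 20% of cells. Atp1b3, a subunit of the sodium-potassium pump (0.27), Klf13 (0.23), Tsc22d3, which encodes the glucocorticoid-induced protein GILZ (0.23), and Selplg, the gene of PSGL-1 (0.22), came next. At the other end were Pfn1 (-0.23), Tnfrsf9, the gene of the activation receptor 4-1BB (-0.19), and Ptprcap (-0.19). For Klf13 the top gene was also S1pr1 (0.27), then Klf2 (0.23), Atp1b3 (0.22), Tsc22d3 (0.20) and Eif1 (0.19), and the lowest were Nfatc1 (-0.21), Rap1a (-0.21) and Cd82 (-0.21). Klf2 and Klf13 thus had 3 of their 5 nearest genes in common, S1pr1, Atp1b3 and Tsc22d3. For Klf6 the top 5 were Klf2 (0.19), Arrdc1 (0.15), Stk38 (0.15), Klf3 (0.15) and S1pr1 (0.14). For Klf3 they started with Klf6 (0.15) and for Klf4 with Slc12a9 (0.16). In sparse counts values this low are not a finding. Levels of Klf2 and Klf13 also ran against the number of genes with at least 5 reads in a cell, with a mean rho of -0.21 and -0.30, and the part of this in their likeness was not tested.

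**Figure D4:**
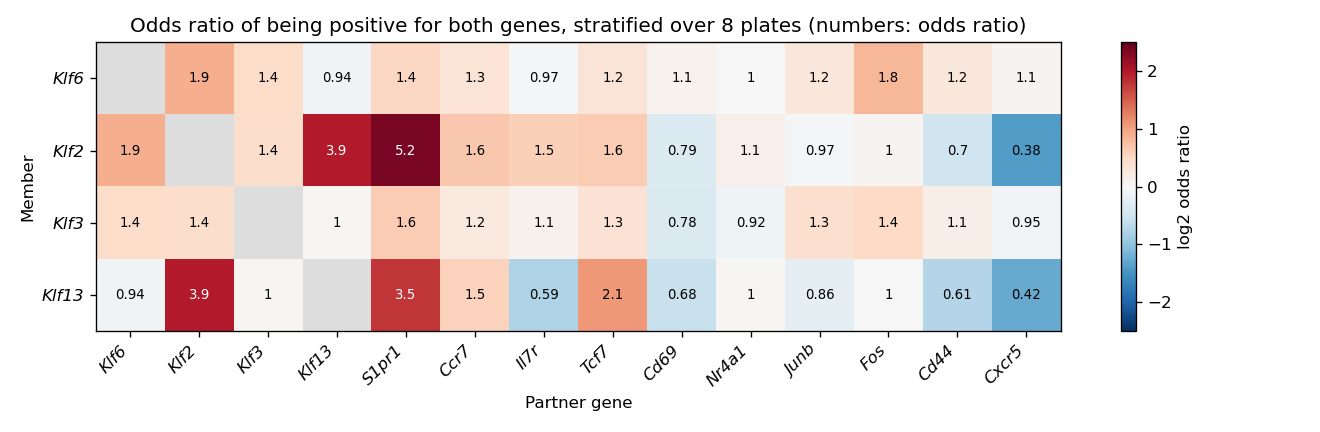
Odds ratio, stratified over the 8 plates, of a cell being positive for a member (rows) and a partner gene (columns). Colours give its log2 (red above 0, blue below), numbers the odds ratio, and grey the gene itself. Among the 4 members shown (Klf4 is left out), Klf2 with S1pr1 is the highest at 5.18 and Klf2 with Cxcr5 the lowest at 0.38.

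Positive calls for the egress gene come from the same counts in the same cells as the rho, so they are no separate support. Of S1pr1-positive cells, 81.4% were Klf2-positive in deleted hosts, against 46.8% of S1pr1-negative cells, and in control hosts 74.4% and 35%. This order held on each of the 8 plates, with an odds ratio of 5.18 (4.65 to 6.11 with 1 plate left out, 5.25 after thinning, 1.65 where 1 read was enough to call a cell positive). Klf2-positive cells were divided at their median on each plate into Klf2-low and Klf2-high cells. Over Klf2-negative, Klf2-low and Klf2-high cells the mean S1pr1 level was 258, 557 and 782 CPM in deleted hosts and 267, 402 and 546 CPM in control hosts. The share of S1pr1-positive cells over the same 3 classes was 56.8%, 81.6% and 92.0% in deleted hosts and 66.9%, 91.1% and 92.1% in control hosts. Klf13 with S1pr1 had an odds ratio of 3.45, with the order held on each of the 8 plates, while Klf6 and Klf3 had 1.43 and 1.55.

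Ccr7, the receptor that leads T cells into the T cell zone, was also read more often in Klf2-positive cells, but less sharply. Its odds ratio with Klf2 was 1.6, and the order held on 7 of the 8 plates. Of Ccr7-positive cells 77.3% were Klf2-positive in deleted hosts, against 70.3% of Ccr7-negative cells, and in control hosts 74.5% and 61.1%. The mean Ccr7 level over the 3 Klf2 classes was 845, 1044 and 1475 CPM in deleted hosts and 787, 1009 and 1153 CPM in control hosts. The share of Ccr7-positive cells was 48.4%, 54.4% and 60.6% in deleted hosts and 40.7%, 57.3% and 54.8% in control hosts. Il7r, the interleukin-7 receptor chain of resting cells, had an odds ratio of 1.51 with Klf2 that turned to 0.952 at a positive threshold of 50 CPM. Tcf7, a factor of resting and follicular helper cells, had 1.56 with Klf2, which was 1.22 at 50 CPM and 1.35 after thinning.

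Cxcr5, the follicle homing receptor, had the lowest odds ratio with Klf2 of the 10 partner genes. Of Cxcr5-positive cells 61.4% of 57 were Klf2-positive in deleted hosts, against 76.5% of 311 Cxcr5-negative cells, and in control hosts 43.5% of 46 against 71.4% of 322. This order held on each of the 8 plates, and the odds ratio was 0.38 (0.34 to 0.40 with 1 plate left out, 0.793 where 1 read was enough). Cxcr5-positive cells made up 23.2%, 15.4% and 10.2% of the 3 Klf2 classes from negative to high in deleted hosts, and 22.0%, 9.68% and 6.35% in control hosts. The mean Cxcr5 level did not fall in step in deleted hosts, at 198, 132 and 157 CPM over the same classes, against 205, 119 and 62.2 CPM in control hosts. Klf13 with Cxcr5 also had a low odds ratio, 0.42, while Klf6 and Klf3 lay near 1 (1.05 and 0.95). The Klf13 share was higher in Cxcr5-positive cells on 0 of 4 deleted plates, but on 2 of 4 control plates. In deleted hosts 84.2% of Cxcr5-positive and 94.5% of Cxcr5-negative cells were Klf13-positive, against 89.1% and 93.2% in control hosts. Cd44, an activation and memory marker, had an odds ratio of 0.70 with Klf2, which turned to 1.95 where 1 read was enough to call a cell positive.

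**Figure D5:**
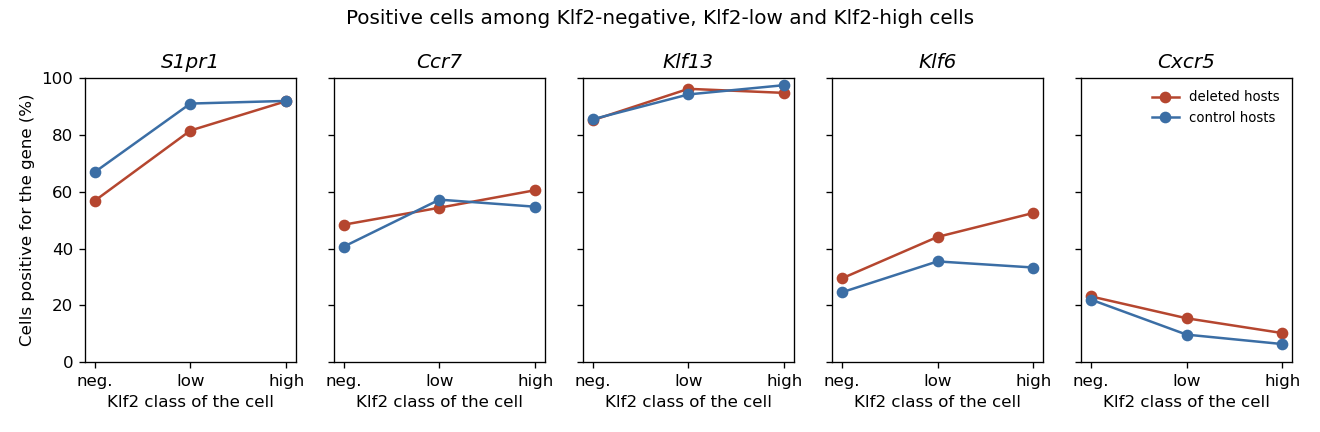
Share of cells positive for each gene (y axis, percent) among Klf2-negative, Klf2-low and Klf2-high cells (x axis; positive cells below, or at or above, their plate median) in deleted hosts (red) and control hosts (blue). S1pr1 goes from 56.8 to 92.0% in deleted hosts and from 66.9 to 92.1% in control hosts across the classes, and Cxcr5 from 23.2 to 10.2% and from 22.0 to 6.35%.

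Cd69, whose product holds the S1pr1 receptor inside the cell after activation, was itself higher in deleted hosts, at 588 CPM against 303 CPM in control hosts, with no overlap of plates. Klf2-positive cells made up 72.3% of Cd69-positive and 75.3% of Cd69-negative cells in deleted hosts, and 62.9% and 69.5% in control hosts. The difference stratified over plates was -4.76 percentage points for Klf2, -5.56 for Klf3, -2.61 for Klf13 and 1.5 for Klf6. The value for Klf6 joins pools that went opposite ways. Klf6-positive cells were more frequent among Cd69-positive cells in deleted hosts (48.2% against 40.7%) and less frequent in control hosts (27.0% against 32.6%). Klf6 was higher in deleted hosts in both kinds of cell. Klf6-positive cells made up 48.2% (39.6 to 56.9%) of 137 Cd69-positive cells in deleted hosts against 27.0% (18.1 to 37.4%) of 89 in control hosts. In Cd69-negative cells the shares were 40.7% (34.3 to 47.3%) of 231 in deleted hosts and 32.6% (27.1 to 38.5%) of 279 in control hosts, with overlapping intervals.

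Fos, an AP-1 subunit and immediate early gene, was the partner with the highest odds ratio for Klf6 outside the Klf genes, at 1.78. Of Fos-positive cells 52.4% were Klf6-positive in deleted hosts, against 37.7% of Fos-negative cells, and in control hosts 39.3% and 27.2%, in this order on 7 of the 8 plates. Junb, another AP-1 subunit, had an odds ratio of 1.21 with Klf6 and Nr4a1, a reporter of receptor signalling, 0.997. The value for Nr4a1 joins pools that went opposite ways. In deleted hosts 46.6% of Nr4a1-positive and 40.2% of Nr4a1-negative cells were Klf6-positive, against 26.4% and 33.6% in control hosts. With Klf3, a pair picked out after its values were seen, Fos went opposite ways in the pools: 48.3% of Fos-positive and 26.9% of Fos-negative cells were Klf3-positive in deleted hosts, against 27.9% and 35.0% in control hosts. The level of Klf6 was higher in deleted hosts among Fos-positive cells (685 CPM, against 357 CPM in control hosts) and among Fos-negative cells (458 CPM, against 218 CPM).

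Several immediate early genes were also higher in deleted hosts. Of 24 in the list, 20 were measured at 5 CPM or more, 2 were at least 2-fold higher in deleted hosts (Junb and Rgs1) and 2 at least 2-fold lower (Egr1 and Egr3), and the median log2 ratio was 0.46, against -0.04 over 9764 genes. For 8 of the 20 every deleted plate lay above every control plate, and for 1 below, against 1.81% and 2.60% of the 9764 genes. Junb was at 2890 CPM in deleted hosts and 1285 CPM in control hosts, with no overlap of plates. Fos was at 618 CPM in deleted hosts and 452 CPM in control hosts, and Nr4a1 at 1344 and 929 CPM, both with overlapping plates. Rgs1, a brake on chemokine signalling, was at 214 CPM in deleted hosts and 102 CPM in control hosts. Egr1 and Egr3, zinc finger genes induced by receptor signals, went against this, with Egr1 at 116 CPM in deleted hosts and 296 CPM in control hosts and Egr3 at 12.8 and 30.7 CPM. The pools were on separate plates, and the part of a shift common to these genes in the Klf6 difference was not tested.

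Of 15 genes downstream of KLF2 or in egress and homing, 10 were measured, each within 2-fold and with overlapping plates. Their median log2 ratio was 0.33, with 8 of the 10 above 0, against 46.3% of the 9764 genes. S1pr1 was at 530 CPM in deleted hosts (plates 444 to 638) and 400.4 CPM in control hosts (plates 298 to 467). Ccr7 was at 1156 CPM in deleted hosts and 979 CPM in control hosts, and Cdkn1b, the gene of the cell cycle inhibitor p27, at 79.6 and 53.4 CPM. Positive cells ran against the level for S1pr1, with 291 in deleted hosts and 308 in control hosts, and for Cdkn1b, with 129 and 143. Cxcr3, a chemokine receptor of inflamed tissue, was at 63.2 CPM in deleted hosts and 39.1 CPM in control hosts, with 19 and 15 positive cells, and Il7r was at 99.1 and 85.4 CPM, with 44 and 48. This list contains Klf3, a direct target of KLF2.

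Of 18 genes upstream of Klf2 or of quiescence, 17 were measured, each within 2-fold, with a median log2 ratio of 0.12. Foxo1, the factor that keeps Klf2 transcribed, was at 324 CPM in both pools. Tsc22d3 was the gene in this list whose plates did not overlap, at 446 CPM in deleted hosts (plates 342 to 681) and 235 CPM in control hosts (plates 205 to 289). Of the 9764 genes at 5 CPM or more, 1.81% had every deleted plate above every control plate and 2.6% every deleted plate below. Mapk7, which encodes ERK5, was at 42.5 CPM in deleted hosts and 23.2 CPM in control hosts, with overlapping plates. Foxo3 was at 23.2 CPM in deleted hosts and 40.4 CPM in control hosts, and Akt1, a kinase that inactivates FOXO factors, at 25.7 and 15.5 CPM, both with overlapping plates. Of 17 cofactors and regulators of Kruppel-like factors, 14 were measured, and the ubiquitin ligase gene Fbxw7 alone was past 2-fold (named after its value was seen), lower at 8.80 CPM in deleted hosts and 19.4 CPM in control hosts. Their median log2 ratio was -0.06, near that of all genes. Crebbp, a coactivator, was at 142 CPM in deleted hosts and 194 CPM in control hosts, Kat2b, an acetyltransferase, at 46.4 and 32.3 CPM, and Sin3a, a corepressor, at 52.3 and 63.4 CPM, each with overlapping plates.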

How the data were processed

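The authors deposited raw counts of reads for every gene in every well. According to the labels' protocols, cells were sorted into 96-well plates for SmartSeq2, a full-length method without molecular identifiers in the protocol, and cDNA was amplified with 25 cycles, so PCR copies count as separate reads. featureCounts 2.0.1 and mm10 are named in the submitters' processing notes; aligner, annotation and strand setting are not given in the sources used. Plates are numbered in the order of their labels.

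Counts were summed per plate and pool over all 736 cell wells and scaled to 1000000 reads in genes (CPM); 32 control wells entered no comparison. Intervals are exact Poisson or Clopper-Pearson and cover counting error only. Values came from Python 3.11.15, numpy 2.4.6, pandas 2.3.3 and scipy 1.17.1. The log2 ratio, the separation of plates and the stratified odds ratio were checked on simulated data, with a set spread between plates. Positive calls, thinning and rho were not part of that check. Alternatives covered plates, scaling, weights, pseudocount, highest cells, shallow wells, the positive threshold, thinning and cells with markers of other types. The members and lists were chosen with earlier results of these data known. Beside the members, the named genes were Klf and Sp genes at 20 CPM or more in either pool, up to 4 genes per list by size of ratio at that level, fixed partners, and the 5 nearest and 3 farthest genes of a member by rho. Genes behind counts of 5 or fewer are also named. One gene of the lists is not reported here and was left out of list counts and sums. No test was run, since each group was 1 pooled sample.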

Additional observations from a re-analysis of the deposited data

Results flagged for a closer look

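Among the 4 plates of a pool, 3 values stood far from the other 3 plates (a gap of over 0.829 of the range, which chance gives for about 1 in 20 groups; 20 groups of plates, level and share of positive cells for each member and pool, were examined). Klf4 was at 18.1 CPM on deleted plate 4, where 1 cell held 99.4% of its reads. Klf4 was at 2.11 CPM on control plate 1, where 1 cell held 93.1% of its reads. Klf13 was at 1307 CPM on control plate 3, where no cell held more than 4.02% of its reads, and Klf6 and Klf2 were also highest among control plates there (406 and 299 CPM).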

How the results depend on the processing

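No paired analysis was possible because each group was 1 pooled sample and no plate number is shared between the hosts. For the level of the 5 members, directions held under median-of-ratios scaling, equal weight of cells or plates and a pseudocount of 0.1 CPM, and when each pool lost its highest cell. The Klf6 log2 ratio was 1.09 under median-of-ratios scaling but 0.985 with equal weight of cells, just under 2-fold. Leaving out cells positive for any B cell, myeloid or erythroid marker at 10 CPM left 26 cells in deleted and 68 in control hosts, since Lyz2 (285 and 223 cells), Cst3 (214 and 173) and Hba-a1 (123 and 108) were each positive in many cells. In those few cells the log2 ratio was 0.84 for Klf3, 4.11 for Klf4 and -0.07 for Klf2, and the share differed by 24.8 percentage points for Klf6 and 4.41 for Klf13. A milder filter chosen after seeing the data left out 4 and 2 cells with 2 or more such markers at 100 CPM and gave a Klf6 log2 ratio of 1.04. With 1 read enough to call a cell positive, a level at which wells without a cell also pass, the share differed by 0.815 points for Klf6, 9.24 for Klf3 and 5.98 for Klf4. Odds ratios were then 1.16 (Klf6 with Klf2), 2.54 (Klf6 with Klf3), 0.598 (Klf2 with Klf3), 1.65 (Klf2 with S1pr1), 0.793 (Klf2 with Cxcr5), 2.93 (Klf2 with Fos), 1.95 (Klf2 with Cd44) and 3.69 (Klf3 with Fos), of which Klf2 with Klf3 and Klf2 with Cd44 turned round; with Klf13, read in every cell, none could be had. The cause was not tested. At 50 CPM or after thinning, Klf2 with S1pr1 stayed at 4.81 and 5.25 and Klf2 with Cxcr5 at 0.387 and 0.399, while Klf6 with Klf13 turned round (1.55 and 1.38), as did Klf2 with Il7r at 50 CPM (0.952). With 1 plate left out, the difference in positive cells was 10.5 to 14.5 points for Klf6, 3.17 to 8.88 for Klf2 and -0.543 to 1.63 for Klf13. Genes at least 2-fold higher in deleted hosts numbered 198 at 20 CPM, 584 at 5 CPM and 1176 without a filter, those lower 228, 655 and 1262, and those with every deleted plate above every control plate 131, 177 and 279.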
